A study of Mus musculus with 19 samples.

Results

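DNAJ proteins, also called J proteins or Hsp40 proteins, are the co-chaperones that bring unfolded or aggregating clients to the Hsp70 chaperones. A conserved J domain in each of them stimulates the ATPase of Hsp70, and the rest of the protein decides which client is brought and in which compartment Hsp70 works. Several of them, with DNAJB6 the best known, keep proteins with an expanded polyglutamine stretch from aggregating, and others serve protein import into mitochondria, folding in the endoplasmic reticulum (ER) or the uncoating of synaptic vesicles. The genes described here are those whose mouse symbol is Dnaja, Dnajb or Dnajc followed by a digit. There were 47 such symbols among 54232 gene rows. The 2 pseudogenes among them were left out, and 5 genes (Dnajb7, Dnajb8, Dnajc22, Dnajc5b and Dnajc5g) did not reach 10 counts in at least 4 of the 19 mice. The 40 remaining genes are the DNAJ members. All 40 also passed the filter on low counts of the test across all genes, which kept 18521 genes.

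Striatal RNA was sequenced from 19 mice on the C57/BL/6 background at 6 months of age, namely 7 wild-type (WT) mice and 4 mice each of the KI-96, the KI-571 and the KI-FL line. KI-FL mice carry the HD140Q knock-in (KI) allele, an Htt gene with an expanded polyglutamine repeat that gives full-length mutant huntingtin (HTT). KI-96 and KI-571 mice carry the same allele after CRISPR/Cas9 cut it in exon 2 or exon 13, and make an N-terminal fragment that holds the expanded repeat. KI-96 and KI-571 mice were heterozygous and kept a WT Htt allele, and mice homozygous for the truncations were not viable. The study tested motor function in heterozygous KI mice, and its sequencing methods do not state the zygosity of the KI-FL mice. The mutant gene was driven by the mouse Htt promoter in every cell that uses it. The comparisons address whether the DNAJ genes differ between striatum with full-length mutant HTT, striatum with a fragment of it and WT striatum.

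Between 12669809 and 26388542 reads were counted on genes in a mouse (median 18202412). Htt itself was at 168.0 to 194.7 CPM (counts scaled to library size) in WT mice (median 173.5). The KI-96 range was 143.3 to 239.9 (median 180.2), the KI-571 range 103.9 to 141.0 (median 125.2) and the KI-FL range 136.5 to 179.0 CPM (median 157.6). The count does not separate the alleles. All 9 markers of striatal projection neurons were present in every mouse, the lowest of them at 109.5 CPM (Tac1). The summed level of 6 markers of cortical excitatory neurons was 1015 CPM in WT replicate 3 and 409.7 CPM in KI-571 replicate 2. The other mice were at 9.88 to 110.8 CPM. Summed over 5 blood markers, KI-571 replicate 2 was at 482.6 CPM, against 43.5 to 230.9 CPM in the others. The part of cortical and blood markers in the DNAJ levels was not tested. Reads on no gene made up 24.2% in KI-96 replicate 3 and 11.1% to 16.0% in the other mice. KI-FL replicate 4 had 16384 genes with a count, against 23177 to 28700 in the others. The summed level of 6 markers of choroid plexus and ependyma was 5113 CPM in KI-571 replicate 2, 5349 CPM in KI-571 replicate 4 and 3046 CPM in KI-FL replicate 1, against 53.3 to 449 CPM in the other 16 mice. Xist was low in 6 of 7 WT, 0 of 4 KI-96, 4 of 4 KI-571 and 3 of 4 KI-FL mice, so that a difference of KI-96 mice from another genotype and a difference between males and females cannot be told apart. The labels give a replicate number for each mouse and no litter, sex or batch. In whole striatum, fewer cells of a type and less RNA per cell cannot be told apart.

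The proximal promoters of 3 DNAJ genes are shown for the results that follow, taken from RefSeq on the build GRCm38.p6, each from the plus strand and ending just before the RefSeq start of the gene or within that window. Dnajc14 is shown because it had the smallest p-value of the family, and its window of 250 bases at chr10:128805304-128805553 held none of the motifs searched. This window lies inside the annotated span of Dnajc14, which starts at 128804062, and overlaps 0 annotated exons. The bases before that annotated start were not searched. The window of Dnajc3, at chr14:118937682-118937931, is shown with an ER stress response element in capitals, 105 to 87 bases before the start. For Dnajb6 a stretch of 29 bases is shown, chr5:29735844-29735872, with a heat shock element in capitals, 46 to 34 bases before the RefSeq start. This stretch lies inside the annotated span of Dnajb6 and overlaps 2 annotated exons, whose transcripts were not recorded.
Dnajc14: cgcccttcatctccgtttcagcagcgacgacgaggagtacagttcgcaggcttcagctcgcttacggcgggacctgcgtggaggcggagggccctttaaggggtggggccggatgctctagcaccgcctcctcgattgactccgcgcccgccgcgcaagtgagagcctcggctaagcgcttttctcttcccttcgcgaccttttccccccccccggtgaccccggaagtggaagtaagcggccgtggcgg
Dnajc3: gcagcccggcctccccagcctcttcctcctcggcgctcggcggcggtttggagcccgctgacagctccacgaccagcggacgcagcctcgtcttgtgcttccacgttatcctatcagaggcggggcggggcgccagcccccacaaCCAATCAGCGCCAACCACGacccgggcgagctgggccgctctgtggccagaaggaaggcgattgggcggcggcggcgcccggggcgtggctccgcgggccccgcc
Dnajb6: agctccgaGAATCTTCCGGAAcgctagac

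A promoter entry was found for 34 of the 40 members. The 250 bases before the start were searched on both strands, here and in 27025 genes in all. A heat shock element of 3 units (GAANNTTCNNGAA or TTCNNGAANNTTC), the form bound by heat shock factor 1 (HSF1), was found in 0.403% of all promoters and, among the members, in Dnajb6. Its shorter form of 2 units (GAANNTTC or TTCNNGAA), which the longer form contains, was found in 13.0% of all promoters and in 4 of the 34 members, Dnaja1, Dnajb6, Dnajc10 and Dnajc27. The ER stress response element (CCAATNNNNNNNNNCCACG), read by factors of the unfolded protein response, was found in 0.122% of all promoters and in 1 member, Dnajc3. The CRE palindrome (TGACGTCA), bound by CREB, was found in 1.6% of all promoters and in 1 member, Dnajc27. A match describes letters in this window and not a site in use.

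The members spanned a wide range of levels. Per kilobase of annotated exon, Dnaja2 was highest at 53.3 ± 5.97 CPM per kb (SD, n = 19), followed by Dnajc5 at 50.4 ± 5.40 CPM per kb and Dnajc8 at 33.7 ± 3.61 CPM per kb. Dnaja2 is an abundant partner of Hsc70 in the cytosol, Dnajc5 encodes cysteine string protein of synaptic vesicles, and Dnajc8 is associated with the spliceosome. The ranges of Dnaja2 (42.3 to 63.0 CPM per kb) and Dnajc5 (41.7 to 58.6 CPM per kb) overlapped over the 19 mice, and that of Dnajc8 (21.6 to 37.5 CPM per kb) lay below both. At the low end were Dnajb13 at 0.48 CPM per kb, Dnajc25 at 0.78 CPM per kb and Dnajb3 at 1.34 CPM per kb. Dnajb13 is a component of the axoneme of motile cilia and Dnajb3 is best known from testis. Summed over the 40 members, the family was at 2788 to 3022 CPM in WT mice (median 2881), 2872 to 3104 CPM in KI-96 mice (median 3008), 2782 to 3026 CPM in KI-571 striatum (median 2896) and 2817 to 3127 CPM in KI-FL mice (median 3021), with the 4 ranges overlapping.

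**Figure D1:**
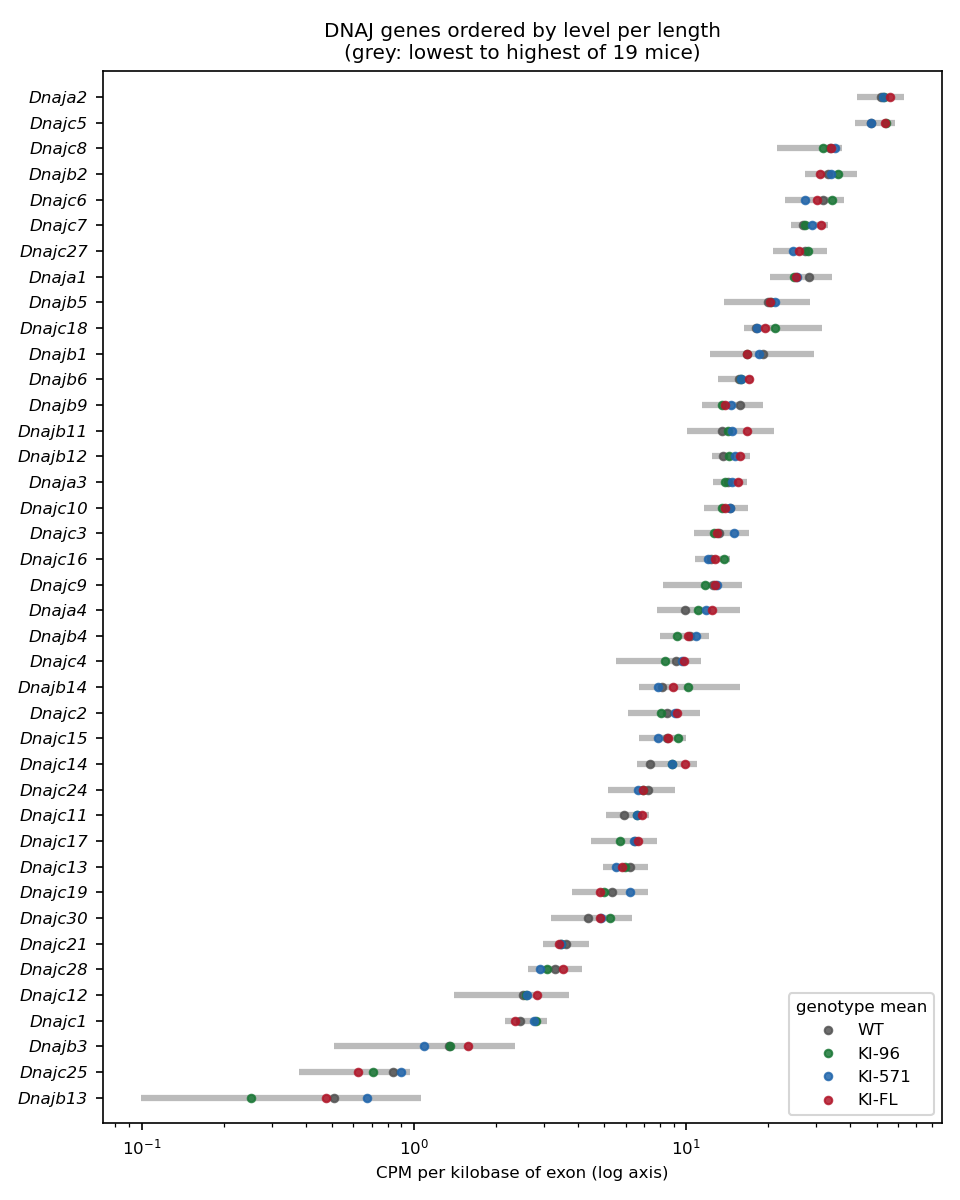
Level of the 40 DNAJ genes in CPM per kilobase of annotated exon on a log axis, with a point for the mean of each genotype (7 WT mice and 4 of each KI genotype) and a grey line from the lowest to the highest of the 19 mice. The genotype means of a gene lie close together against the span between genes, from Dnaja2 at 53.3 to Dnajb13 at 0.48 CPM per kb.

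Mice of the same genotype varied by different amounts from gene to gene. The coefficient of variation within genotypes, pooled over the 4 genotypes, was lowest for Dnajb12 (6.59%) and Dnajb6 (7.22%) and highest for Dnajb3 (47.8%) and Dnajb13 (46.4%), the genes with the fewest reads. It was 23.3% for Dnajb5, 22.5% for Dnajc12 and 22.4% for Dnajb14. The heat-responsive Dnajb1 was at 20.5% and Dnajb11, which responds to ER stress, at 18.9%. The ratio of the highest to the lowest genotype mean was 1.29 or less for all members but Dnajb13 (2.68), Dnajb3 (1.45), Dnajc25 (1.43) and Dnajc14 (1.34).

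No comparison gave a DNAJ gene past the threshold: 0 of 40 members had an adjusted p-value under 0.05 in each of the 7 comparisons made (quasi-likelihood test of edgeR, Benjamini-Hochberg adjustment over all genes tested). Of all genes tested, 0.027% passed in KI-96 mice against WT mice, 0.0324% in KI-571 striatum against WT mice, 0.194% in KI-FL mice against WT mice and 0.054% in the mean of the KI genotypes against WT mice. With DESeq2 the DNAJ count was 1 (Dnajc14) in KI-FL mice and in the mean of the KI genotypes, and 0 in the other 5 comparisons. By the same tool 509 and 272 of all 18521 genes tested passed in KI-FL mice and in the mean of the KI genotypes. The comparisons with WT share the 7 WT mice. The 95% interval of the log2 fold change lay within 1 of 0 for 39 of 40 members in KI-96 mice, 38 in KI-571 striatum and 38 in KI-FL mice, and within 0.5 of 0 for 32, 35 and 31 members.

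At an unadjusted p-value under 0.05, 1 member was higher (Dnajc14) and 1 lower (Dnajb13) in KI-96 mice than in WT mice, where 4.36% of all genes were higher and 3.09% lower by the same rule. In KI-571 mice 1 member was higher (Dnajc14) and 1 lower (Dnajc6), where 3.89% of all genes were higher and 3.83% lower. In KI-FL mice 5 members (12.5%) were higher, Dnajc14, Dnajc7, Dnajb12, Dnajc11 and Dnaja4, and 0 were lower, where 7.89% of all genes were higher and 8.84% lower. The mean of the KI genotypes had 4 members higher, Dnajc14, Dnajc11, Dnajb12 and Dnaja4, and 0 lower, where 6.03% of all genes were higher and 6.84% lower. With each mouse left out in turn, these 4 counts ran from 1 to 5, 1 to 4, 3 to 6 and 2 to 6. The count of 5 was without KI-96 replicate 4, where 2489 of 18864 genes tested were under 0.05. The count of 4 was without KI-571 replicate 4, where 1808 of 18990 genes were. The counts of 3 and 2 were without WT replicate 6, where 2411 and 1596 of 18317 genes were. Without KI-96 replicate 3 the count in KI-96 mice was 2 (Dnajb2 and Dnajc14), where 1233 of 18746 genes tested were under 0.05. Without KI-FL replicate 4 the count in KI-FL mice was 5 (Dnaja2, Dnaja4, Dnajc11, Dnajc12 and Dnajc14), where 2553 of 18997 were. Without the 3 mice with high choroid plexus and ependyma markers it was 2 in KI-96 mice (Dnajb9 and Dnajc14), 3 in KI-571 striatum (Dnajb9, Dnajc11 and Dnajc14) and 4 in KI-FL mice (Dnajb9, Dnajc11, Dnajc14 and Dnajc7). Of the 19646 genes tested without these mice, 1426, 1439 and 3270 were under 0.05 in the same order.

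All KI-FL mice lay above all WT mice for 3 members, Dnajc7, Dnajc11 and Dnajc14, and below them for 0, where 2.9% of all genes tested were separated upwards and 2.38% downwards. In KI-96 mice 0 members were separated from WT mice in either direction, where 0.599% of all genes were separated upwards and 0.643% downwards. In KI-571 mice 0 members were separated, against 0.88% and 0.67% of all genes. The median log2 fold change of the 40 members stood at 0.019 for KI-96, 0.034 in KI-571 striatum and 0.033 in KI-FL mice, beside -0.015, -0.0089 and -0.028 over all genes tested. A fold change above 0 was found for 21, 26 and 24 of the 40 members, beside 8744, 8940 and 8534 of all 18521 genes tested.

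**Figure D2:**
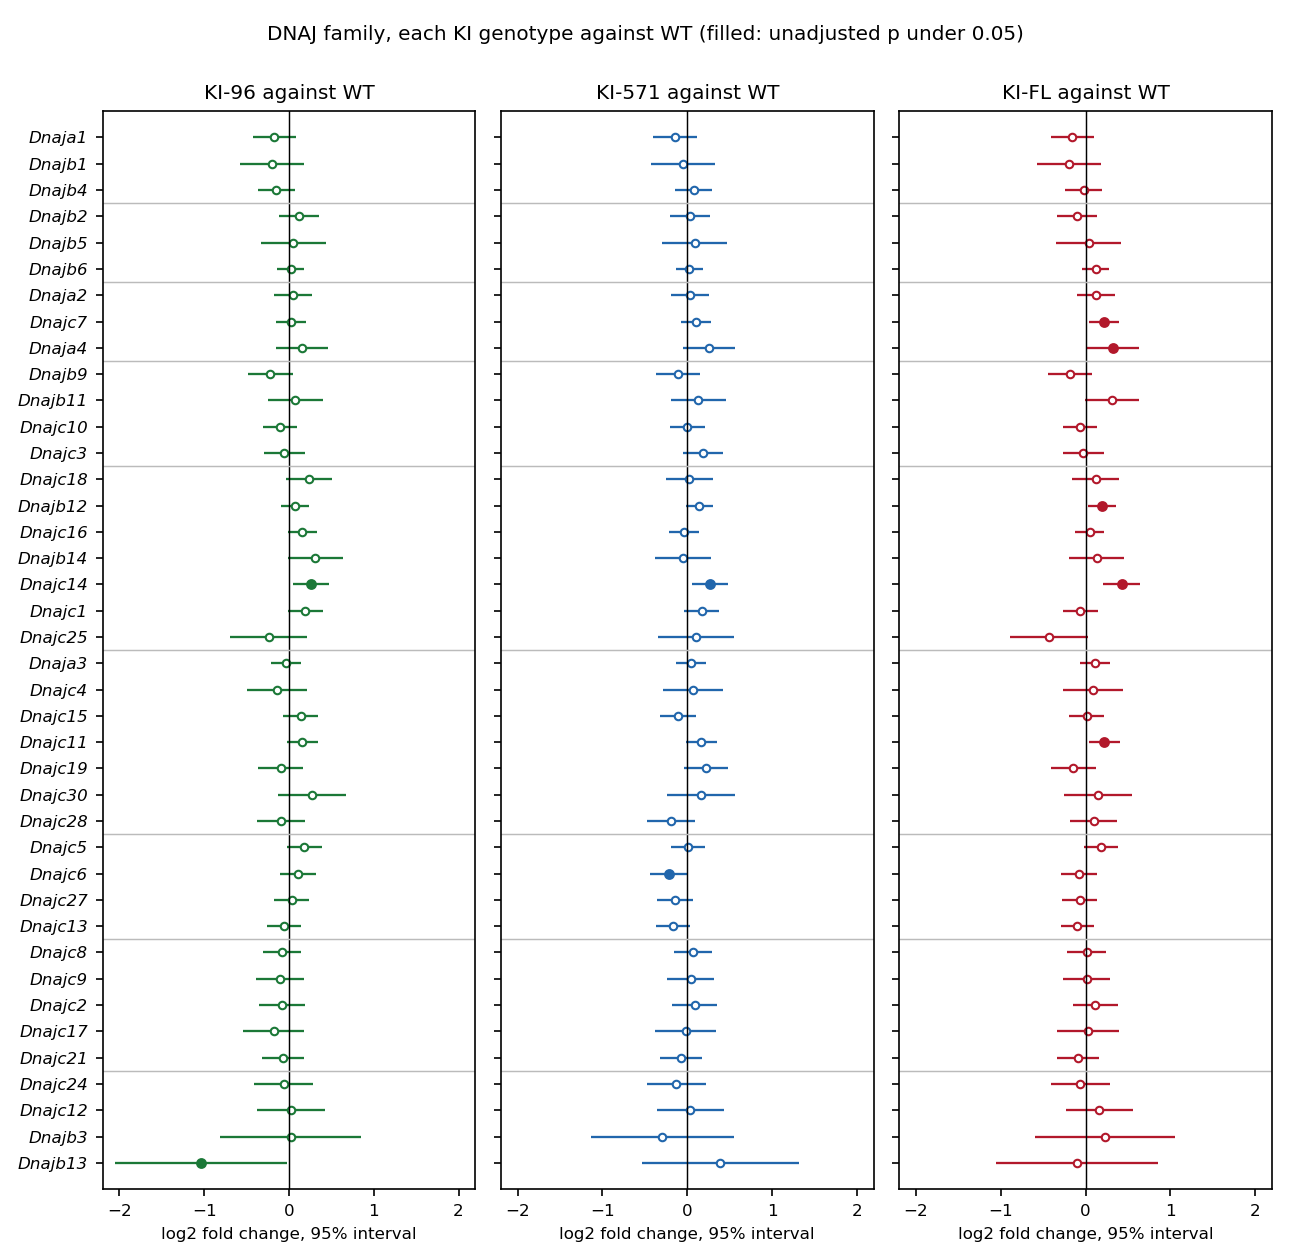
Log2 fold change of the 40 DNAJ genes for the KI-96, the KI-571 and the KI-FL genotype against the same 7 WT mice, with 95% intervals from edgeR's quasi-likelihood fit and filled points at an unadjusted p-value under 0.05. Most intervals lie within 0.5 of 0, and filled points number 2, 2 and 5 in the 3 comparisons, with Dnajc14 filled in each.

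The 3 heat-inducible members of the cytosol, Dnaja1, Dnajb1 and Dnajb4, are targets of HSF1 and hand misfolded proteins to cytosolic Hsp70. None of the 3 passed the test in any of the 3 KI genotypes, and their log2 fold changes were below 0 for 3 of 3 in KI-96 mice (median -0.17), 2 of 3 in KI-571 striatum (median -0.050) and 3 of 3 in KI-FL mice (median -0.16). KI-96 replicate 3 had the lowest level of all 19 mice for each of the 3, and without it the KI-96 median was -0.087. Without KI-FL replicate 4 the KI-FL median was -0.084, with Dnajb4 at 0.039. Dnajb1 (ENSMUSG00000005483.10; chromosome 8 from 83608193 to 83612653 on GRCm38) was at 43.0 to 94.3 CPM in WT mice with a median of 58.4 CPM. It was at 58.7, 57.8, 39.4 and 58.0 CPM in the 4 KI-96 mice, 62.0, 50.6, 74.2 and 50.3 CPM in the KI-571 mice and 56.8, 55.3, 54.9 and 47.2 CPM in the KI-FL mice. The 2 highest Dnajb1 levels of the 19 mice, 94.3 and 77.7 CPM, were in WT mice, and the groups overlapped. The 95% interval of its log2 fold change was -0.58 to 0.18 in KI-96 mice, -0.42 to 0.32 in KI-571 striatum and -0.58 to 0.18 in KI-FL mice. Dnaja1 averaged 242.8 ± 36.0 CPM (SD, n = 7) in WT mice and 215.2 ± 29.1, 219.8 ± 30.6 and 217.8 ± 27.2 CPM (SD, n = 4 each) for the KI-96, the KI-571 and the KI-FL genotype. Dnajb4 was at 90.3 ± 11.6 CPM in WT mice and 81.4 ± 7.67, 95.2 ± 10.2 and 89.1 ± 11.1 CPM in the same KI genotypes. For both, the ranges of the genotypes overlapped.

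Dnajb6 and Dnajb2 are the J proteins best known for holding polyglutamine proteins in solution, Dnajb2 being enriched in neurons, and Dnajb5 is a further cytosolic member of this class. None passed the test in any comparison with WT. Dnajb6 (ENSMUSG00000029131.14; chromosome 5 from 29735688 to 29818134), the gene whose heat shock element is printed above, was among the steadiest members. It was at 89.0 to 102.3 CPM in WT mice with a median of 94.7 CPM, at 104.3, 101.8, 79.0 and 98.7 CPM in KI-96 mice, at 92.6, 92.0, 98.6 and 102.6 CPM in KI-571 striatum and at 107.1, 98.5, 101.0 and 104.5 CPM in KI-FL mice. Its lowest level was in KI-96 replicate 3, the mouse with the most reads on no gene. The 95% interval of its log2 fold change was -0.14 to 0.18 in KI-96 mice, -0.14 to 0.19 in KI-571 striatum and -0.044 to 0.28 in KI-FL mice. Dnajb2 was at 120.7 to 151.0 CPM in WT mice with a median of 143.6 CPM, and its KI values ran from 115.6 CPM in KI-FL replicate 4 to 180.6 CPM in KI-96 replicate 4. Both ends of the WT range of Dnajb5, 81.5 and 169.0 CPM, were the lowest and highest of all 19 mice.

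Of the other cytosolic members, Dnajc7 and Dnaja4 were higher in KI-FL mice at an unadjusted p-value under 0.05, and neither passed after adjustment. Dnajc7 (ENSMUSG00000014195.15; chromosome 11 from 100582818 to 100620168), whose tetratricopeptide repeats bind both Hsp70 and Hsp90, was at 121.6 to 144.8 CPM in WT mice with a median of 127.7 CPM. It was at 126.6, 157.2, 117.7 and 130.9 CPM in KI-96 mice, 148.1, 143.4, 151.1 and 121.4 CPM in KI-571 striatum and 147.0, 149.6, 151.3 and 161.8 CPM in KI-FL mice. The KI-FL values lay above the WT values without overlap, and those of KI-96 and KI-571 mice overlapped with WT. Its log2 fold change in KI-FL mice was 0.22 (standard error 0.085, unadjusted p = 0.0176, adjusted p = 0.205 with edgeR), and 0.19 without KI-FL replicate 4. Dnajc7 shares 154 exon bases with Cnp on the opposite strand, an oligodendrocyte gene at 718 CPM in WT mice and 656.5 CPM in KI-FL mice, and whether the counting used strand is not given in the sources used here. Dnaja4, chosen for mention after its values were seen, was at 48.7, 56.5, 45.2 and 28.1 CPM in KI-FL mice and 28.0 to 42.0 CPM in WT mice (median 35.3 CPM). Of the KI-FL mice, 3 were above all WT mice, and KI-FL replicate 4 was at the low end of the WT range. The log2 fold change of Dnaja4 was 0.33 (standard error 0.15, adjusted p = 0.270 with edgeR). It was 0.49 without KI-FL replicate 4 (adjusted p = 0.141) and 0.20 without KI-FL replicate 2, the mouse with the highest level, and 44.1% of its exon bases overlap with Wdr61 on the opposite strand.

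In the lumen of the ER, Dnajb9, Dnajb11 and Dnajc3 assist the Hsp70 BiP and are induced by the unfolded protein response, and Dnajc10 is a disulfide reductase. None of the 4 passed the test in a KI genotype. Dnajb11 was at 35.5 to 58.8 CPM in WT mice with a median of 39.4 CPM. Its levels were 41.5, 58.5, 32.6 and 51.1 CPM in KI-96 mice, 49.9, 45.8, 50.2 and 44.9 CPM in KI-571 striatum and 56.5, 67.9, 43.1 and 49.6 CPM in KI-FL mice. The groups overlapped, and the interval of its log2 fold change in KI-FL mice was -0.0076 to 0.64 (unadjusted p = 0.0552 with edgeR). Dnajc3 (ENSMUSG00000022136.8; chromosome 14 from 118937976 to 118981697), whose promoter holds the ER stress response element printed above, averaged 67.6 ± 10.7 CPM (SD, n = 7) in WT mice and 65.1 ± 3.39, 76.8 ± 8.25 and 66.5 ± 10.6 CPM (SD, n = 4 each) for the KI-96, the KI-571 and the KI-FL genotype. Its highest level, 87.8 CPM, was in KI-571 replicate 4. Dnajb9 was at 40.1 ± 2.63 CPM in WT mice and 34.5 ± 5.28, 37.2 ± 8.07 and 35.3 ± 5.60 CPM in the same KI genotypes, with the highest level, 48.8 CPM, also in KI-571 replicate 4. That mouse had the highest sum of choroid plexus and ependyma markers. Without the 3 mice with high markers, Dnajb9 had an unadjusted p under 0.05 with edgeR in each KI genotype. The part of the markers in these levels was not tested. Dnajc10 was at 72.6 ± 6.50 CPM in WT mice, and its KI means were 67.5 ± 8.88, 72.7 ± 7.39 and 69.4 ± 7.01 CPM in the same order.

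The membrane-bound members of the ER present their J domain to either side of the ER membrane. Of the 7, 6 had a fold change above 0 in KI-96 mice (median log2 fold change 0.19), 5 in KI-571 striatum (0.10) and 5 in KI-FL mice (0.12). Of all 18521 genes tested, 8744, 8940 and 8534 were above 0 in the same order. Without KI-96 replicate 3, in which Dnajb14 and Dnajc18 were at their highest, 5 of the 7 were above 0 in KI-96 mice and the median was 0.094. Dnajc14 (ENSMUSG00000025354.5; chromosome 10 from 128804062 to 128819446), known for the export of the dopamine D1 receptor from the ER, was the member with the smallest p-value in KI-FL mice. It was at 43.1 to 53.7 CPM in WT mice with a median of 46.5 CPM. Its levels were 65.0, 62.7, 52.3 and 51.7 CPM in KI-96 mice, 66.9, 57.7, 61.5 and 46.6 CPM in KI-571 striatum and 72.0, 60.4, 66.5 and 60.6 CPM in KI-FL mice. The KI-FL mice were all above the WT mice, while 2 KI-96 mice and 1 KI-571 mouse lay within the WT range. The means were 48.3 ± 4.74 CPM (SD, n = 7) in WT mice and 57.9 ± 6.92, 58.1 ± 8.59 and 64.9 ± 5.54 CPM (SD, n = 4 each) for the KI-96, the KI-571 and the KI-FL genotype.

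The log2 fold change of Dnajc14 was 0.43 in KI-FL mice (standard error 0.10, interval 0.21 to 0.64, unadjusted p = 0.000461, adjusted p = 0.0744 with edgeR). For KI-96 it was 0.26 (standard error 0.10, adjusted p = 0.636) and 0.27 in KI-571 striatum (standard error 0.10, adjusted p = 0.488) by the same test, against the same WT mice. For the mean of the KI genotypes it was 0.32 (standard error 0.080, adjusted p = 0.0997). None of these passed the threshold. With DESeq2 the adjusted p was 0.0155 in KI-FL mice and 0.0170 for the mean of the KI genotypes, which pass, and over 29 alternatives in KI-FL mice the adjusted p ran from 0.0155 to 0.511 and the log2 fold change from 0.34 to 0.47. Against WT replicates 1 to 4 alone the fold change in KI-FL mice was 0.34 (adjusted p = 0.511 with edgeR), and WT replicates 1 to 4 were at 53.7, 52.5, 53.6 and 44.8 CPM where WT replicates 5 to 7 were at 44.2, 43.1 and 46.5 CPM. Without the 3 mice with high choroid plexus and ependyma markers it was 0.36 (adjusted p = 0.124), KI-FL replicate 1, with the highest Dnajc14 level, being among them. Ormdl2, which covers 17.0% of the exon bases of Dnajc14 on the opposite strand, was at 2.72 CPM in WT mice and 2.70 CPM in KI-FL mice.

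Dnajb12 and Dnajb14 act together in ER membrane quality control. Dnajb12 was at 41.8 to 49.7 CPM in WT mice (median 45.8 CPM) and at 55.6, 49.9, 48.7 and 57.6 CPM in KI-FL mice, and 3 of the 4 KI-FL mice were above all WT mice. Its log2 fold change in KI-FL mice was 0.20 (standard error 0.079, adjusted p = 0.212 with edgeR). Dnajb14 did not pass, and its highest level was in KI-96 replicate 3, at 247.4 CPM, where the other 18 mice were at 105.7 to 161.3 CPM.

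Mitochondrial members include Dnaja3 of the matrix, Dnajc15 and Dnajc19 of the import motor and Dnajc11 of the complex that shapes cristae. Dnajc11 (ENSMUSG00000039768.16; chromosome 4 from 151933691 to 151982137) was at 54.2 to 70.2 CPM in WT mice with a median of 61.8 CPM. It was at 71.6, 70.3, 73.1 and 66.0 CPM in KI-96 mice, 75.0, 77.8, 72.1 and 57.4 CPM in KI-571 striatum and 73.2, 74.3, 76.5 and 70.2 CPM in KI-FL mice. The KI-FL mice were above the WT mice, though the lowest of them and the highest WT mouse were level to 3 digits. The log2 fold change in KI-FL mice was 0.22 (standard error 0.088, unadjusted p = 0.0190, adjusted p = 0.210 with edgeR), and for the mean of the KI genotypes 0.18 (standard error 0.067, adjusted p = 0.261). Dnaja3 averaged 55.9 ± 4.30 CPM (SD, n = 7) in WT mice and at 54.4 ± 4.51, 57.5 ± 4.37 and 60.5 ± 4.94 CPM (SD, n = 4 each) in the KI genotypes in the same order, and Dnajc15 at 55.4 ± 4.01 CPM and at 60.9 ± 5.94, 51.3 ± 4.88 and 55.9 ± 8.51 CPM. Dnaja3, Dnajc15 and Dnajc19 did not pass in any comparison with WT.

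Of the members on vesicles and endosomes, Dnajc6 encodes auxilin, which uncoats clathrin-coated vesicles, and Dnajc13 is an endosomal protein. Dnajc6 (ENSMUSG00000028528.16; chromosome 4 from 101496648 to 101642799) was at 160.7 to 218.6 CPM in WT mice with a median of 183.6 CPM. It was at 208.4, 195.1, 224.4 and 183.4 CPM in KI-96 mice, 174.6, 166.1, 160.2 and 146.2 CPM in KI-571 striatum and 195.0, 190.4, 191.0 and 136.6 CPM in KI-FL mice. All KI-571 mice lay below all KI-96 mice, and both overlapped with WT mice. The log2 fold change in KI-571 striatum against WT was -0.22 (standard error 0.10, unadjusted p = 0.0476, adjusted p = 0.640 with edgeR), and the same comparison with DESeq2 did not reach an unadjusted p of 0.05. Dnajc5 averaged 330.9 ± 28.8 CPM (SD, n = 7) in WT mice and 375.5 ± 40.7, 333.1 ± 42.6 and 375.0 ± 19.9 CPM (SD, n = 4 each) for the KI-96, the KI-571 and the KI-FL genotype, and Dnajc13 at 74.2 ± 4.30 CPM and at 71.2 ± 11.3, 65.9 ± 4.78 and 69.5 ± 7.68 CPM. Neither passed in a comparison with WT.

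The 5 members of the nucleus and ribosome, among them Dnajc2 of the ribosome and Dnajc8 of the spliceosome, had 0 passing at an unadjusted p under 0.05 in the comparisons with WT. Their median log2 fold change was -0.088 for KI-96 (0 of 5 above 0, beside 8744 of all 18521 genes tested), 0.042 in KI-571 striatum and 0.014 in KI-FL mice. Without KI-96 replicate 3, in which Dnajc8 and Dnajc9 were at their lowest, 2 of 5 were above 0 for KI-96 and the median was -0.022, and without KI-FL replicate 4 the KI-FL median was 0.060. Dnajc2 averaged 42.9 ± 4.79 CPM (SD, n = 7) in WT mice, and its KI means lay between 40.5 and 46.6 CPM. Among the remaining members, the cilium gene Dnajb13 (ENSMUSG00000030708.14; chromosome 7 from 100501716 to 100514960) had 5 to 73 counts per mouse. It was at 0.42 to 2.79 CPM in WT mice with a median of 1.39 CPM, at 1.01, 0.72, 0.27 and 0.74 CPM in KI-96 mice, at 1.20, 1.73, 1.53 and 2.90 CPM in KI-571 striatum and at 1.46, 0.95, 1.87 and 0.91 CPM in KI-FL mice. All 4 KI-96 mice lay below the WT median, and KI-96 replicate 3 below all WT mice. Against WT its KI-96 log2 fold change was -1.03 (standard error 0.49, unadjusted p = 0.0460, adjusted p = 0.669 with edgeR). It was -0.77 without KI-96 replicate 3 or without WT replicate 7 and -0.21 with Xist as a covariate. In the same comparison all 6 choroid plexus and ependyma markers had a log2 fold change below 0 (median -0.77), and their part in the level of Dnajb13 was not tested. Ucp2 overlaps 11.2% of its exon bases on the opposite strand.

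**Figure D3:**
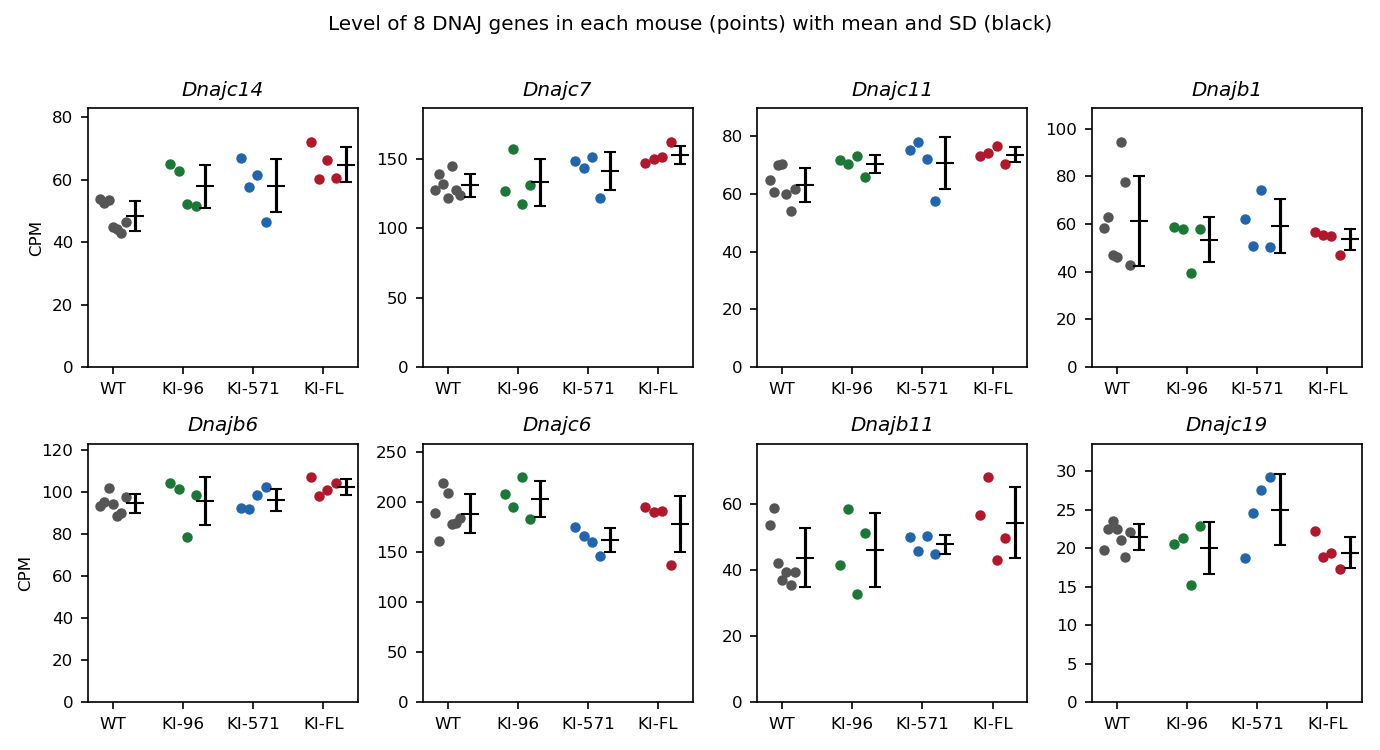
CPM of 8 DNAJ genes in each of the 19 mice, a panel per gene, with the mean and SD of each genotype. The KI-FL points of Dnajc14, Dnajc7 and Dnajc11 lie above the WT points, the KI-571 points of Dnajc6 lie below the KI-96 points, and the points of Dnajb1 and Dnajb6 overlap between genotypes.

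The KI genotypes were also compared with each other. Between KI-96 and KI-571 mice 0 members passed after adjustment, where 0.0054% of all genes did, and 5 members had an unadjusted p under 0.05, where 5.51% of all genes did. With a mouse left out this count ran from 1 to 6. It was 1 (Dnajc6) without KI-96 replicate 3, where 724 of 18746 genes tested were under 0.05. As 0 of 4 KI-96 and 4 of 4 KI-571 mice had low Xist, genotype and sex cannot be told apart in this pair. Dnajc6 was higher in KI-96 mice by 0.33 on the log2 scale (standard error 0.12, adjusted p = 0.704 with edgeR), and Dnajb13 was lower, with a log2 difference of -1.43 (standard error 0.54, adjusted p = 0.750). These 2 members did not overlap between the groups, where 2.85% of all genes did not. The 2 KI-571 mice with high choroid plexus and ependyma markers had 1.73 and 2.90 CPM of Dnajb13, the highest of their group, and without them and KI-FL replicate 1 its log2 fold change was -0.998. It was -1.16 without KI-96 replicate 3 (unadjusted p = 0.0505 with edgeR) and -0.65 with Xist as a covariate. Dnajc15 (0.25), Dnajc19 (-0.32) and Dnajc16 (0.20, chosen for mention after its values were seen) were the other 3, with adjusted p = 0.892, 0.874 and 0.900. Without KI-96 replicate 3 their unadjusted p with edgeR was 0.0635, 0.147 and 0.0606, and the log2 fold change of Dnajc19 was -0.21.

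Between KI-96 and KI-FL mice 0 members passed after adjustment, where 0.0% of all genes did. Of the members, 1 had an unadjusted p under 0.05, where 8.9% of all genes did, and 0 were without overlap, where 3.16% of all genes were. That member was Dnajc1, a J protein of the ER membrane, at 31.7, 32.2, 35.9 and 30.9 CPM in KI-96 mice and 25.1, 31.4, 27.2 and 25.8 CPM in KI-FL mice, which differed on the log2 scale by 0.26 (standard error 0.11, adjusted p = 0.542 with edgeR). With Xist as a covariate this was 0.093. With a mouse left out the count ran from 0 to 2. It was 0 without KI-FL replicate 1, where 1906 of 19012 genes tested were under 0.05. Dnajc1 was not counted without KI-96 replicate 3, where Dnajb2 was, nor without KI-FL replicate 4, where Dnaja4 and Dnajc12 were. Between KI-571 and KI-FL mice 0 members passed after adjustment, where 0.0864% of all genes did, 2 had an unadjusted p under 0.05, where 8.9% of all genes did, and 0 were without overlap, where 4.32% of all genes were. Dnajc19 of the mitochondrial import motor was at 18.7, 24.6, 27.6 and 29.2 CPM in KI-571 striatum and 22.2, 18.8, 19.4 and 17.4 CPM in KI-FL mice, which differed on the log2 scale by 0.36 (standard error 0.14, adjusted p = 0.468 with edgeR). Dnajc25 was at 3.65, 4.40, 3.83 and 4.40 CPM in KI-571 striatum and 3.32, 4.04, 1.72 and 2.28 CPM in KI-FL mice, which differed on the log2 scale by 0.53 (standard error 0.25, adjusted p = 0.553). The highest level of both genes was in KI-571 replicate 4, a mouse with high choroid plexus and ependyma markers, and without the 3 such mice the log2 fold changes were 0.33 and 0.50. Without KI-FL replicate 4 the unadjusted p with edgeR was 0.0523 for Dnajc19 and 0.0807 for Dnajc25. Dnajc6, Dnajc12 and Dnajc15 were under 0.05 instead, as were 1274 of 18997 genes tested. Neither Dnajc19 nor Dnajc25 was under 0.05 without KI-571 replicate 3 or without KI-571 replicate 4. The interval of the difference lay within 1 of 0 on the log2 scale for 38 of 40 members between KI-96 and KI-571 mice, 38 between KI-96 and KI-FL mice and 37 between KI-571 and KI-FL mice.

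**Figure D4:**
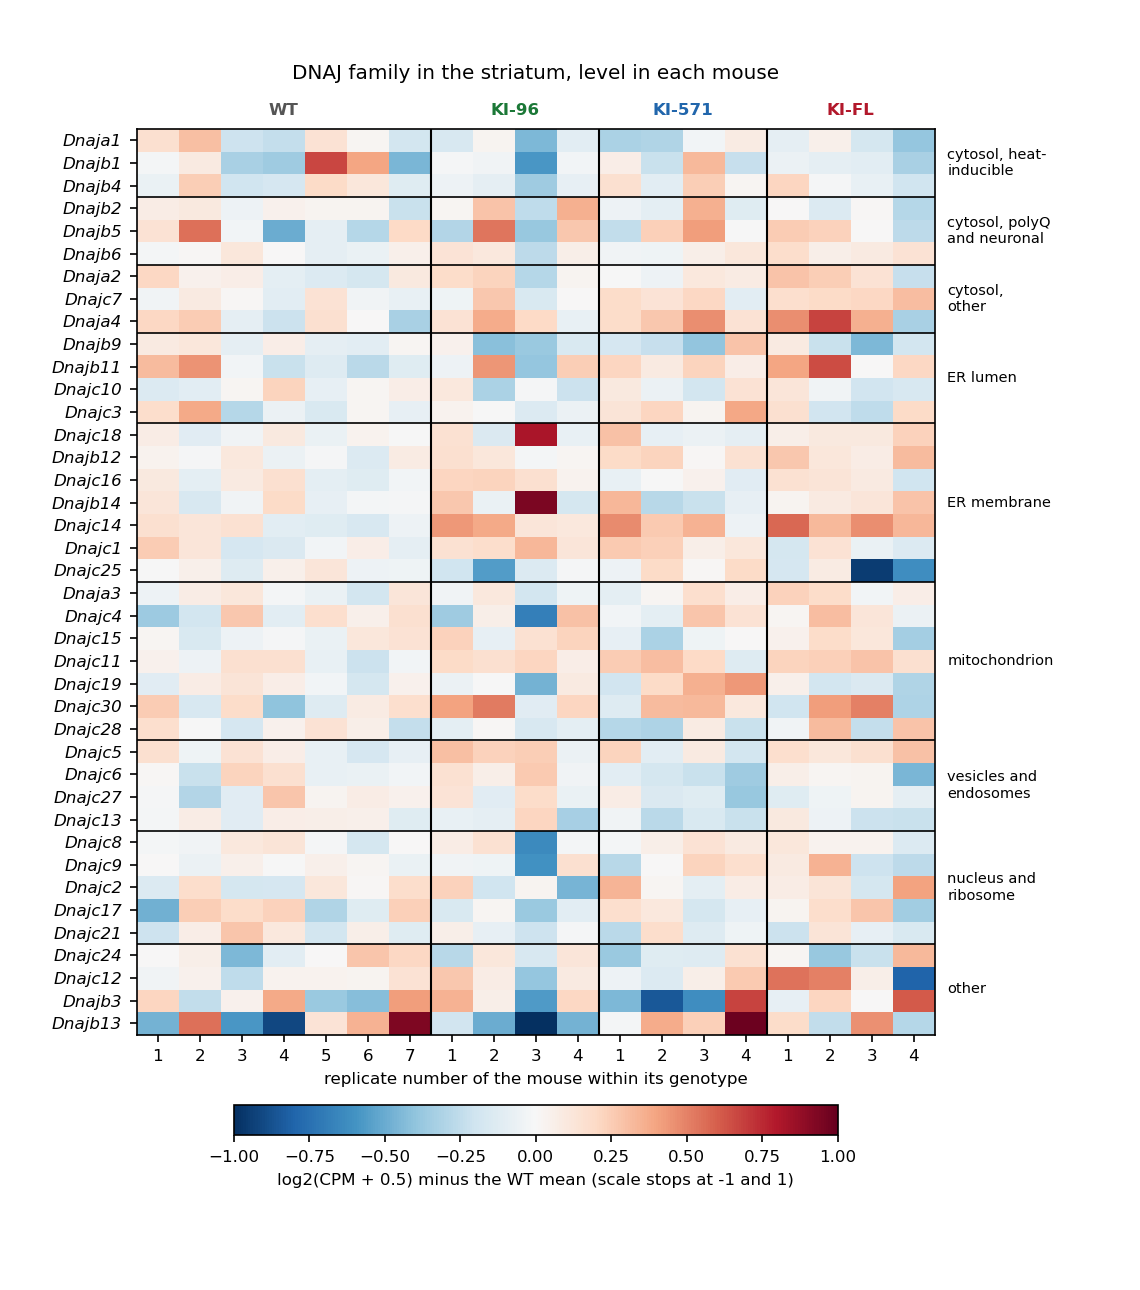
Heat map of the 40 DNAJ genes grouped by compartment (rows) in the 19 mice grouped by genotype (columns), colored by log2(CPM + 0.5) minus the WT mean on a scale from -1 to 1. Most cells are pale, Dnajc14 is above the WT mean in all KI-FL mice, and Dnajb13 and Dnajb3 vary most from mouse to mouse.

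Single mice accounted for many of the extreme values. KI-96 replicate 3 held the highest or lowest level of all 19 mice for 18 of the 40 members (45.0%), where it did so for 30.3% of all genes tested. In this mouse 13 members were at their lowest, among them the heat-inducible Dnaja1, Dnajb1 and Dnajb4 and also Dnajb6, Dnajb11 and Dnaja2, and 5 were at their highest, Dnajb14, Dnajc1, Dnajc13, Dnajc18 and Dnajc6. The 5 at their highest had a median span on the genome of 112 kb, the 13 at their lowest 18.2 kb, and the 40 members 28.0 kb. KI-FL replicate 4 held an extreme for 9 members (22.5%), where it did so for 44.5% of all genes. Each of the other mice held one for 0 to 8 members. KI-571 replicate 4, with high choroid plexus and ependyma markers, was the highest for 6 members, Dnajb13, Dnajb3, Dnajb9, Dnajc19, Dnajc25 and Dnajc3, and for 6.13% of all genes. KI-FL replicate 1, with the same markers, was the highest for 5, Dnaja2, Dnaja3, Dnajb6, Dnajc12 and Dnajc14, and for 4.04% of all genes. KI-571 replicate 2, the other mouse with these markers, was the highest for 1 member and the lowest for 3, and KI-FL replicate 2, without them, was the highest for 5. The part of these markers in the levels was not tested.

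**Figure D5:**
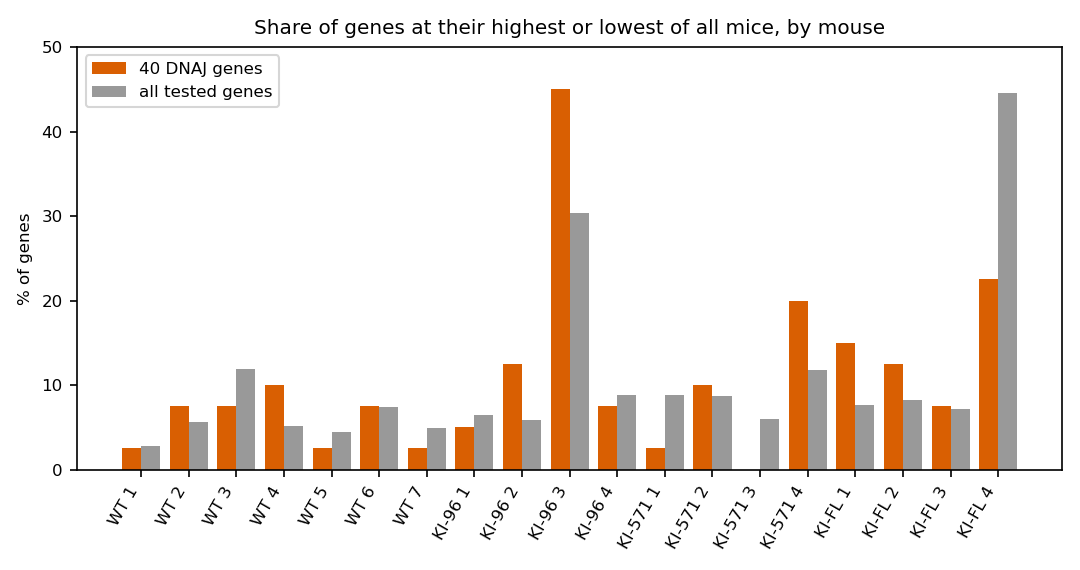
Percent of genes that have their highest or lowest level of all 19 mice in a given mouse, for the 40 DNAJ genes and for all 18521 genes tested. KI-96 replicate 3 (45.0% of members, 30.3% of all genes) and KI-FL replicate 4 (22.5% and 44.5%) stand above the other mice.

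The partners of the J proteins were counted in the same comparisons. The Hsp70 list (15 genes tested, with Hspa8 highest at 1122 CPM in WT mice), the nucleotide exchange factors and Hsp70 regulators (13, Bag6 at 254.5 CPM), the HSF1 targets (16), the unfolded protein response (16, Canx at 329.5 CPM) and J proteins under other symbols (4) had 0 genes passing after adjustment with edgeR in any of the 7 comparisons. Some genes stand on more than 1 list. With DESeq2 1 gene passed, Sil1, the nucleotide exchange factor of the ER Hsp70, in KI-FL mice and in the mean of the KI genotypes, named here after its values were seen. It averaged 26.1 ± 2.72 CPM (SD, n = 7) in WT mice and averaged 40.1 ± 11.7 CPM (SD, n = 4) with full-length mutant HTT, with 57.4 CPM in KI-FL replicate 4 and 31.6 to 35.7 CPM in the other KI-FL mice.

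At an unadjusted p under 0.05 in KI-FL mice, 2 Hsp70 genes were higher and 3 lower than in WT mice, 3 regulators were higher and 0 lower, 1 HSF1 target was higher and 2 lower, and 2 genes of the unfolded protein response were higher and 0 lower, beside the 7.89% and 8.84% of all genes. In KI-571 striatum the unfolded protein response had 3 higher and 0 lower, the regulators 1 and 0, the Hsp70 list 0 and 1 and the HSF1 targets 0 and 0, beside 3.89% and 3.83% of all genes. In KI-96 mice the unfolded protein response had 1 higher and 0 lower, the regulators 1 and 0, the Hsp70 list 1 and 1 and the HSF1 targets 0 and 1, beside 4.36% and 3.09% of all genes. The median log2 fold change of that list was 0.050 for KI-96, 0.14 in KI-571 striatum and 0.17 in KI-FL mice. For the HSF1 targets it was -0.19, -0.096 and -0.14, the same sign as the median of the 3 heat-inducible J proteins. For the Hsp70 list it was 0.049, -0.019 and 0.056. Of the 16 HSF1 targets 11, 14 and 11 were below 0, beside 9777, 9581 and 9987 of all 18521 genes tested. The summed level of these targets averaged 4445 CPM in WT mice (SD 503.4) and 4246 CPM in KI-571 striatum (SD 359.6). The sum was higher in KI-96 mice, at 4514 CPM (SD 738.2), and in KI-FL mice, at 4727 CPM (SD 327.6). The lowest sum, 3459 CPM, was in KI-96 replicate 3, and the KI-96 values include that mouse.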

How the data were processed

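The authors deposited a table of raw read counts per gene, not normalized. Per the methods of the study, adapters were trimmed with BBduk, reads were aligned to GRCm38 with STAR and counted on genes with HTSeq. Versions, annotation and strand setting are not given in the sources used here, so that reads of overlapping genes could have been lost or shared. The 5 summary lines of HTSeq were not treated as genes, and 20.8% to 32.8% of the reads of a mouse were not assigned to a gene. The 4 columns that belong to no listed mouse were not used. Gene positions and exons were taken from GENCODE M21.

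TMM normalization and the filter filterByExpr (counts of at least 10, totals of at least 15) were followed by a single edgeR 4.0.16 model (R 4.3.3) of the 19 mice by genotype, with no covariate and a biological coefficient of variation of 0.24. The study used DESeq2 with a sacrifice batch that the labels do not give, and removed a WT sample that is not named, so all 7 WT mice were kept. The quasi-likelihood test was made for each KI genotype and for their mean against WT and for the 3 pairs of KI genotypes, with Benjamini-Hochberg adjustment over 18521 genes and a threshold of 0.05. CPM values use TMM library sizes. The DNAJ members, their grouping and the other gene lists were chosen with earlier results of these data known. Members were named when fixed by their role, when among the 3 smallest p-values of a comparison or among the 3 highest or lowest levels per kilobase, and others are said to be chosen after their values were seen. A fold change is given for a member at an unadjusted p under 0.05 in that comparison.

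As alternatives, DESeq2 1.42.0, its size factors in edgeR, no filter on low counts, at least 10 counts in every mouse, Xist as a covariate, 1 surrogate variable (sva 3.50.0), the replicate number as a block, WT replicates 1 to 4 alone, an adjusted threshold of 0.1 and each mouse left out were tried. The mice with low Xist alone and the mice with low choroid plexus and ependyma markers alone (a sum under 1000 CPM) were chosen after seeing the data. The scripts were tested on simulated data. The p-values measure the spread between the mice, for which the labels name no litter.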

Additional observations from a re-analysis of the deposited data

Results flagged for a closer look

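In 112 groups of mice, 4 genotypes for each of 28 DNAJ genes, 5 held a mouse that stood apart from the others of its genotype by Dixon's test, where chance gives 5.6. Dnajb1 was at 39.4 CPM in KI-96 replicate 3 and at 57.8 to 58.7 CPM in the other KI-96 mice. Dnajb4 was at 70.0 CPM in the same mouse and at 84.2 to 86.7 CPM in the others. In KI-571 replicate 3 Dnajb2 was at 179.9 CPM, where the other KI-571 mice were at 129.0 to 135.6 CPM. Dnajb3 was at 2.47 CPM in KI-571 replicate 4 and at 0.54 to 0.86 CPM in the others of its genotype. KI-FL replicate 4 had 136.6 CPM of Dnajc6, against 190.4 to 195.0 CPM in the rest of its genotype. No cause was tested for any of the 5.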

How the results depend on the processing

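Fold changes at an unadjusted p under 0.05 in the main fit were recomputed under each alternative. Of these values 0 reversed, 591 kept their direction and side of the adjusted threshold, and 4, all of Dnajc14, passed it. As they were selected by that p and most alternatives keep most mice, a reversal was unlikely from the start. Members outside this selection could reverse, as Dnajb4 did in KI-FL mice without KI-FL replicate 4. The number of DNAJ genes at an adjusted p under 0.05 was 0 and became 1 (Dnajc14) in KI-FL mice and in the mean of the KI genotypes with DESeq2 and at a threshold of 0.1. With DESeq2, 509 and 272 of all 18521 genes tested passed in these comparisons. With each mouse left out the DNAJ count was 0 to 0 in the 6 comparisons of single genotypes and 0 to 1 in the mean of the KI genotypes. It was 1 there without KI-96 replicate 3 (adjusted p of Dnajc14 0.0499 with edgeR), where 173 of 18746 genes passed. It was also 1 without KI-571 replicate 4 (0.0374), where 132 of 18990 genes passed.

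Counts at an unadjusted p under 0.05 moved as follows, the cause not being tested. Counts over all genes tested by the same rule stand beside them, and the shares in the main fit are given above. In KI-96 mice against WT (2) the count was 1 when every mouse needed 10 counts, 0 with Xist as a covariate, 1 with the replicate block and 0 against WT replicates 1 to 4. In that order 1235 of 13672, 217 of 18521, 541 of 18521 and 527 of 18128 genes tested were under 0.05. With a mouse left out the DNAJ count ran from 1 to 5, with 5 without KI-96 replicate 4 (2489 of all genes) and 4 without WT replicate 1 or 4 (1628 and 1303 of all genes). It was 1 without WT replicate 5, 6 or 7, KI-571 replicate 2 or 3 or KI-FL replicate 1 (992 to 1372 of all genes). In KI-571 mice (2) the count was 1 with DESeq2, with its size factors, with Xist and with the replicate block, and 0 against WT replicates 1 to 4. In that order 1582, 1426, 1366 and 742 of 18521 genes tested and 748 of 18128 were under 0.05. The DNAJ count ran from 1 to 4, with 4 without KI-571 replicate 4 (1808 of all genes). It was 1 without WT replicate 7, KI-96 replicate 1 or 2, KI-571 replicate 2 or 3 or KI-FL replicate 1, 2 or 3 (1021 to 1461 of all genes). In KI-FL mice (5) the count was 2 without the filter, with the replicate block and against WT replicates 1 to 4. In that order 5285 of 36846, 1492 of 18521 and 1540 of 18128 genes tested were under 0.05. With a mouse left out the DNAJ count ran from 3 to 6, with 3 without WT replicate 6 (2411 of all genes). Between KI-96 and KI-571 mice (5) the count ran from 1 to 6, with 1 without KI-96 replicate 3 (724 of all genes). It was 3 without KI-96 replicate 1, KI-571 replicate 2 or 4, KI-FL replicate 1 or 3 or WT replicate 1 or 5 (639 to 1030 of all genes). Between KI-96 and KI-FL mice (1) it ran from 0 to 2, with 0 without KI-FL replicate 1 and 2 without KI-96 replicate 1, 2 or 4, KI-571 replicate 4 or KI-FL replicate 4. Between KI-571 and KI-FL mice (2) the count was 1 without the filter, with the replicate block and with WT replicates 1 to 4, and 4 with a surrogate variable. In that order 3465 of 36846, 1252 of 18521, 1257 of 18128 and 1217 of 18521 genes tested were under 0.05. The DNAJ count ran from 1 to 3, with 1 without WT replicate 2, KI-96 replicate 1 or KI-571 replicate 2 or 4 (1245 to 1652 of all genes). For the mean of the KI genotypes (4) the count was 2 with Xist and with the replicate block and 1 against WT replicates 1 to 4. In that order 1537 and 811 of 18521 genes tested and 817 of 18128 were under 0.05. The DNAJ count ran from 2 to 6, with 2 without WT replicate 6 or KI-96 replicate 2 (1596 and 2147 of all genes).

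The labels do not say whether replicate numbers pair the mice, and mice with the same number are different animals. Of 24 pairs of same-numbered mice, 5 had a correlation of their deviations over 0.1 (range -0.13 to 0.29). Pairs of mice with different numbers and genotypes ranged from -0.46 to 0.34. These correlations do not decide whether same-numbered mice shared a batch. Over all genes, edgeR called 5, 6 and 36 genes against WT in the 3 KI genotypes, in the order used above, DESeq2 28, 102 and 509, and edgeR against WT replicates 1 to 4 0, 0 and 0. With 4 KI mice a genotype, the median 95% interval of a member reached 0.25 to either side of its log2 fold change against WT.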
